A study of Mus musculus with 10 samples.

Results

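The genes described here bring fatty acids into skeletal muscle and set what the mitochondria do with them: the lipase of the capillary wall (Lpl) with its inhibitor (Angptl4) and the receptor for its lipoprotein substrates (Vldlr), the carriers of the fiber membrane (Cd36, Slc27a1 and Slc27a4), the cytosolic carrier (Fabp3), the enzyme that breaks down malonyl-CoA (Mlycd) and the uncoupling proteins (Ucp2 and Ucp3). They were chosen by name, 10 of the 21098 genes with a counted segment, and not by their values, though earlier results of these data were known. Gastrocnemius, a mixed but mostly fast calf muscle, came from male wild-type C57BL/6J mice, 30 weeks old per the labels, which were all made obese with a high fat diet (DIO mice) that began 9 weeks before treatment. The 5 ASO libraries are of mice given 10 mg/kg of the anti-miR-22 antisense oligonucleotide RES-010 under the skin once a week for 14 weeks, and the 5 CTRL libraries are of mice given 0.9% saline on the same schedule. All groups were obese, and no lean mice or mice given a control oligonucleotide were analysed here. Each library was taken as a separate mouse from its label. For all libraries the diet is recorded as begun at 9 weeks of age. With 9 weeks of diet and 14 weeks of treatment this does not add up to the age of 30 weeks.

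Muscle takes part of its fatty acids from circulating triglyceride. Lipoprotein lipase, anchored on the capillary endothelium, frees them, CD36 and the fatty acid transport proteins pass them across the fiber membrane, and FABP3 carries them through the cytosol to acyl-CoA synthetases. Their entry into mitochondria is held back by malonyl-CoA, which blocks carnitine palmitoyltransferase 1 and is removed by malonyl-CoA decarboxylase. UCP3 is a carrier of the inner membrane of muscle mitochondria whose gene responds to fatty acids through PPAR receptors, as do Cd36, Lpl, Angptl4 and Mlycd.

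The oligonucleotide blocks miR-22-3p, and a microRNA pairs with its targets mainly through its seed, bases 2 to 8. The mature microRNA is shown with its seed in capitals, and the 5 places where the 3′UTRs of these genes hold the seed match GGCAGCT, on the strand of the gene, are shown with the match in capitals, because they are the candidate contacts with the inhibited microRNA (the microRNA from RefSeq on GRCm38.p6, the genes from GRCm39).
mmu-miR-22-3p: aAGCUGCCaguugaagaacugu
Cd36, chr5:17986968-17986974, minus strand: taatcaaaactgcatGGCAGCTt
Vldlr, chr19:27230197-27230203, plus strand: gagcaaagtcagatgGGCAGCTg
Slc27a4, chr2:29709089-29709095, plus strand: tagctactgctcttgGGCAGCTc
Slc27a4, chr2:29709214-29709220, plus strand: tcacggagcagcagtGGCAGCTg
Ucp2, chr7:100149831-100149837, plus strand: cttgggggattgtctGGCAGCTg

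Cd36, Vldlr, Slc27a4 and Ucp2 held a match in a 3′UTR of a coding transcript, and Fabp3, Lpl, Angptl4, Slc27a1, Ucp3 and Mlycd held none. Of all genes with a 3′UTR 19.6% held at least 1 match. Among the tested genes with a 3′UTR it was 26.3%, beside 2 of the 8 tested members. The match in Cd36 lies inside the most distal of its counted segments and beyond the ends of the others, and the match in Vldlr lies between its counted segments. A match is a string of letters, and whether miR-22 binds there was not tested.

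Read pairs were counted by the authors only where a transcript ends, over at most 500 bp of its 3′UTR, so a gene with several transcript ends has several segments, which were summed here. The levels are CPM, each gene's counts relative to the TMM-scaled library size. Changes between the groups are log2 fold changes of ASO over CTRL from edgeR's quasi-likelihood test, fitted across 7813 genes, with the Benjamini-Hochberg adjusted p and a threshold of 0.05. The CTRL libraries held 1606909 to 2116720 counts and the ASO libraries 2239186 to 2632560, so that every ASO library was the deeper. Of 12 muscle fiber markers, Acta1, Ckm, Ttn, Atp2a1 and Actn3 were well counted, with 13020 to 48029 CPM of Ckm, the muscle creatine kinase, in every library. The other 7 were absent or nearly so on the counted segments, with 0 counts of Mb, Pygm and Tnnt3 and 1 to 42 counts of Myh1, Myh2, Myh4 and Tnni2 over all 10 libraries. The summed fiber markers were higher in every ASO library (91655 to 146900 CPM) than in any CTRL library (45014 to 85994 CPM), and their part in the results was not tested. Because these are bulk samples, fewer cells of a type and less RNA per cell cannot be told apart.

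Some libraries stood apart in markers of other tissue. The summed adipocyte markers were 16409 CPM in CTRL replicate 3 and 967 to 4479 CPM in the other 9 libraries, and the same library had the highest macrophage (1834 CPM) and fibroblast (1910 CPM) sums. Its endothelial sum of 9035 CPM held 8702 CPM of Fabp4, which fat cells also express, and without Fabp4 it had 333 CPM beside 267 to 571 CPM in the other libraries. None of the 9 tested adipocyte markers passed the test, beside 29.2% of all genes tested. Pparg, the defining regulator of fat cells, is listed at 0 in all libraries, but so are genes that muscle uses (Hadha, Etfdh, Ech1, Cpt2 and Mb), and a 0 on these segments does not show that a gene is not expressed. Of 7 tested macrophage markers, with a median log2 fold change of -1.14, Mrc1 and C1qc were lower with the ASO (-1.51 and -1.61, edgeR adjusted p = 0.036 and 0.046). Without CTRL replicate 3 these 2 were at -0.92 and -1.04 (adjusted p = 0.10 and 0.13), and each call was lost in 7 of 10 fits without a library. Of 6 tested fibroblast markers, with a median of -0.62, only Lum passed, as lower (-1.72, edgeR adjusted p = 0.0014). The other markers of these 2 lists did not pass, and Cd68 of macrophages (0.26) and Col1a1 of fibroblasts (0.36) were above 0. The shares called, 28.6% of the tested macrophage and 16.7% of the tested fibroblast markers, were near and below the 29.2% of all genes. The slow fiber markers ranged from 57.3 to 7898 CPM among the ASO libraries, with the highest in replicate 4, and from 92.0 to 2552 CPM among the CTRL libraries, with the highest in replicate 1. Of the 7 slow fiber markers tested only Myl6b passed, or 14.3%, below the share of all genes. It was higher (1.72, edgeR adjusted p = 0.037), with 0.71 (adjusted p = 0.056) without ASO replicate 4. These 3 libraries recur below, and the values without them are given where they matter.

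Of the 10 genes, 8 had enough counts to be tested. Cd36 was lower with the anti-miR-22 ASO, no gene was higher, and 7 did not pass the threshold. Over all genes tested, 29.2% passed it, 17.4% lower and 11.8% higher, so that 12.5% of the tested members is below the share of all genes. The log2 fold change was below 0 for 6 of the 8 and above 0 for Ucp3 and Mlycd, with a median of -0.37 beside -0.03 over all genes. In none of the 8 did the groups separate without overlap, which 21.4% of all genes did.

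**Figure D1:**
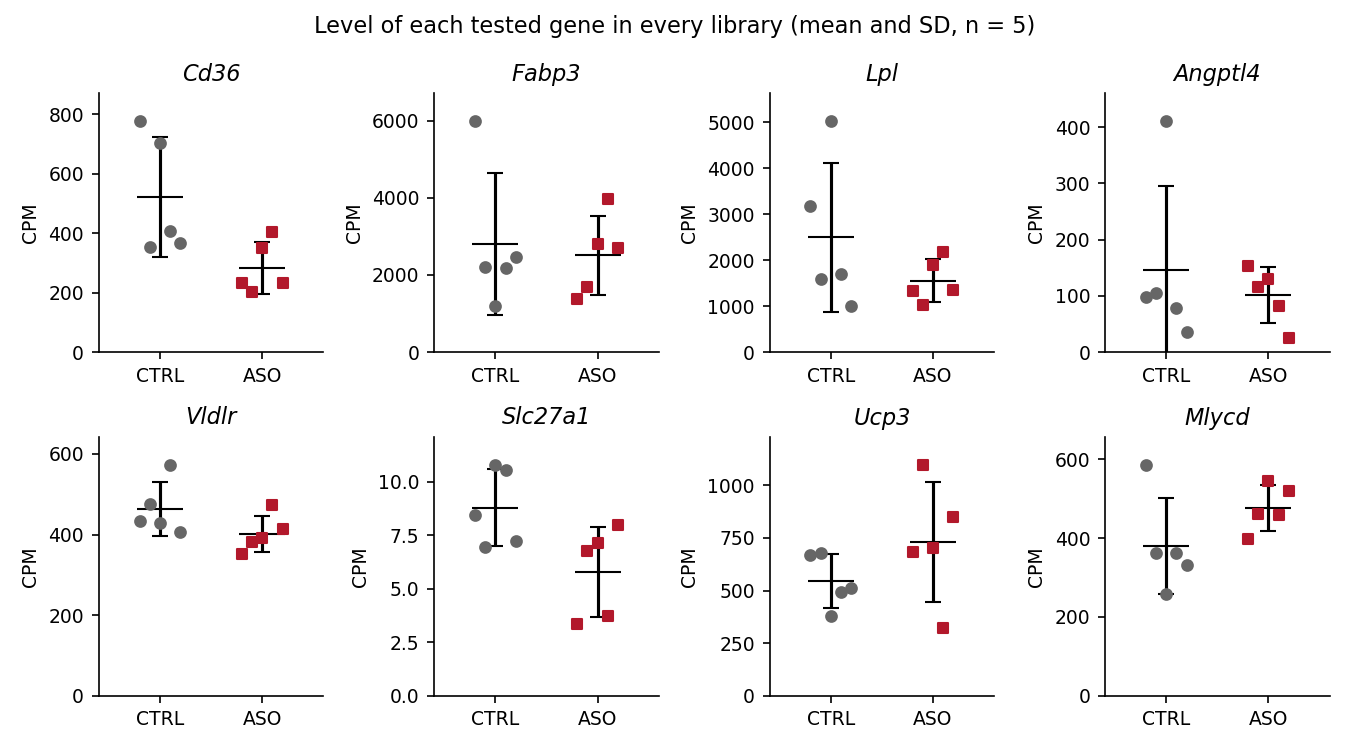
Each panel plots the CPM of 1 of the 8 tested genes in the 5 CTRL libraries (grey circles) and the 5 ASO libraries (red squares), with the mean as a line and the SD as an error bar cut at 0. The groups overlap in every panel, Cd36 has 4 ASO points below all CTRL points, and single CTRL libraries are far above the rest for Fabp3 (5985 CPM) and Angptl4 (410 CPM).

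Cd36 encodes the fatty acid translocase of the fiber and endothelial membrane. The CTRL libraries held 776, 354, 702, 406 and 367 CPM (replicates 1 to 5) and the ASO libraries 233, 203, 349, 404 and 231 CPM. Of the ASO libraries, 4 were below every CTRL library, and replicate 4 was above CTRL replicates 2 and 5. The mean fell from 521 ± 202 to 284 ± 87.4 CPM (SD, n = 5), a log2 fold change of -0.88 with an SE of 0.27 and a 95% interval of -1.47 to -0.28, which is a level 45.5% lower (edgeR adjusted p = 0.029). The call was lost in 5 of the 10 fits that left out a library: without ASO replicate 1, 2 or 5 or CTRL replicate 1 or 3 the fit gave log2 fold changes of -0.81 to -0.69 with adjusted p-values of 0.063 to 0.077 by edgeR. With every library drawn down to 1606909 counts the change was -0.85 (adjusted p = 0.036).

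The 3 counted segments of Cd36 did not change alike. They lie in the 3′UTR on chromosome 5, minus strand, of GRCm39 (the annotated gene spans chr5:17986432-18094067), and they share bases, so that each was counted only where it is alone. The most distal segment, chr5:17986688-17987187, which holds the miR-22 seed match and 31.2% of the counts of the gene, had 131 ± 61.9 CPM in CTRL and 115 ± 36.4 CPM in ASO libraries. Its log2 fold change was -0.20 (SE 0.29, 95% interval -0.82 to 0.42, adjusted p = 0.61 by edgeR over 10658 segments).

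The segments upstream of it were lower. The segment that ends 796 bp upstream, chr5:17987484-17987983, holds 62.0% of the counts on 117 bases of its own, and it fell from 342 ± 155 to 159 ± 57.2 CPM (log2 fold change -1.10, SE 0.31, edgeR adjusted p = 0.014). The segment that ends 326 bp upstream, chr5:17987014-17987513, fell from 40.4 ± 13.3 to 14.9 ± 5.64 CPM (log2 fold change -1.43, SE 0.28, edgeR adjusted p = 0.0016), and its ASO libraries (8.13 to 22.8 CPM) were all below its CTRL libraries (29.5 to 63.5 CPM). Of all segments tested, 40.6% passed the threshold, 24.7% lower with the ASO and 16.0% higher, and 19.2% were lower without overlap. When each gene was reduced to its most distal segment and the libraries rescaled, Cd36 did not pass the test (log2 fold change -0.53, adjusted p = 0.21 by edgeR).

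**Figure D2:**
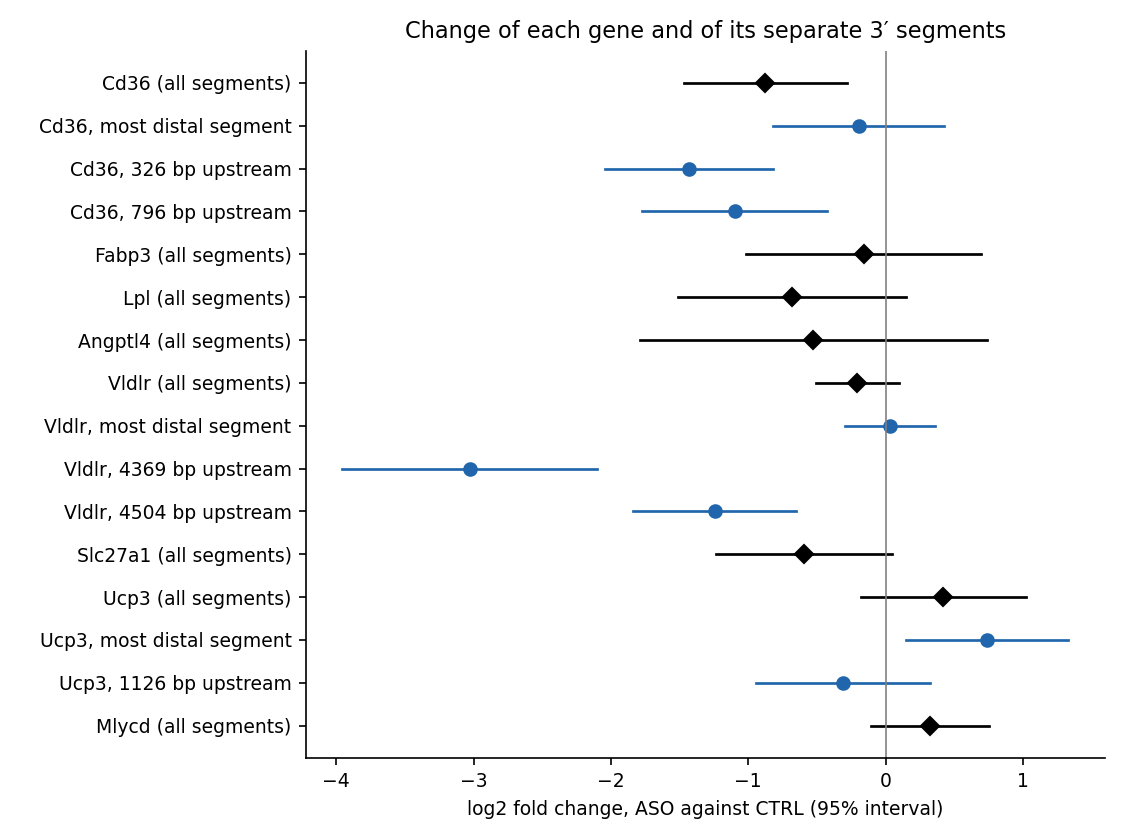
The horizontal axis is the log2 fold change of ASO against CTRL with its 95% interval, for the 8 tested genes (black diamonds) and, for Cd36, Vldlr and Ucp3, for each tested segment (blue circles) with the distance of its end from the most distal end. The upstream segments of all 3 genes lie to the left of their most distal segment, at -1.43 and -1.10 for Cd36 and at -3.03 and -1.24 for Vldlr.

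The fatty acid transport proteins were close to the limit of detection. Slc27a1, the transport protein of muscle and fat, was counted on 6 bases that its overlapping segments do not share, with 152 counts in all. CTRL libraries held 8.42, 6.94, 10.8, 10.5 and 7.25 CPM and ASO libraries 3.35, 6.74, 7.14, 3.73 and 7.96 CPM. Although ASO replicates 1, 2 and 4 were below all CTRL libraries, the others were within their range, and the difference did not pass the test (8.79 ± 1.80 against 5.78 ± 2.10 CPM, n = 5, log2 fold change -0.60, SE 0.30, 95% interval -1.24 to 0.05, edgeR adjusted p = 0.15).

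Slc27a4, which is also an acyl-CoA synthetase, had 29 counts over the 10 libraries, with 0 in CTRL replicate 1 and in ASO replicates 1 and 5 and at most 6 in any library. It carries a pair of seed matches, both downstream of its counted segment, chr2:29707035-29707534. Neither a change nor its absence was detectable with so few counts on this segment, and the gene was not tested.

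Upstream of the membrane, Lpl frees the fatty acids. CTRL libraries held 3172, 1593, 5026, 1700 and 1002 CPM and ASO libraries 1330, 1026, 1902, 2178 and 1345 CPM. CTRL replicates 3 and 1 were the highest of all, and the other 3 CTRL libraries lay within or just below the range of the ASO libraries. The mean was 2499 ± 1623 CPM in CTRL and 1556 ± 470 CPM in ASO libraries (n = 5), with a log2 fold change of -0.68 (SE 0.38, 95% interval -1.51 to 0.15, edgeR adjusted p = 0.20). Without CTRL replicate 3, the library with the highest adipocyte markers, it was -0.27 (adjusted p = 0.56). CTRL replicate 1, the next highest for Lpl, had an adipocyte sum of only 1276 CPM. Of the counts, 99.8% fell on 1 segment, chr8:69359087-69359586 on the plus strand, in the 3′UTR of 10 coding transcripts.

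Lpl and Cd36 varied together from mouse to mouse. After the group means were removed, their log2 CPM had Pearson's r = 0.89 over the 10 libraries. Cd36 had r = 0.91 with the mean log2 CPM of the endothelial markers, Fabp4 among them. With the slow fiber and the muscle fiber markers its r was 0.70 and -0.63. For Lpl, r was 0.77 with the endothelial, 0.58 with the slow fiber, -0.56 with the muscle fiber and 0.19 with the adipocyte markers. These values describe libraries that also differ in depth and makeup. The CTRL libraries with the most Cd36, replicates 1 and 3, were also those with the most Lpl. ASO replicates 4 and 3, highest for Cd36 in that group, were highest for Lpl too.

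Angptl4, the secreted inhibitor of the lipase that fatty acids induce, was highest in the library with the highest fat cell markers. CTRL libraries held 97.3, 106, 410, 79.0 and 35.1 CPM and ASO libraries 153, 115, 130, 82.4 and 25.3 CPM. CTRL replicate 3 stood alone, and the other 9 libraries overlapped fully. The log2 fold change was -0.53 (SE 0.58, 95% interval -1.79 to 0.74, 145 ± 151 against 101 ± 49.5 CPM, n = 5, edgeR adjusted p = 0.52), and without CTRL replicate 3 it was 0.34 (adjusted p = 0.59). Nearly all counts (99.3%) were on the segment chr17:33993882-33994381, 1158 bp upstream of the most distal end, of which 479 bases lie in the 3′UTR of the long coding transcript. The log2 ratio of Angptl4 to Lpl in the same library was -4.36 ± 0.59 in CTRL and -4.12 ± 1.11 in ASO libraries (n = 5, difference 0.24, two-sided exact permutation p = 0.68, adjusted over 4 ratios 0.68).

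**Figure D3:**
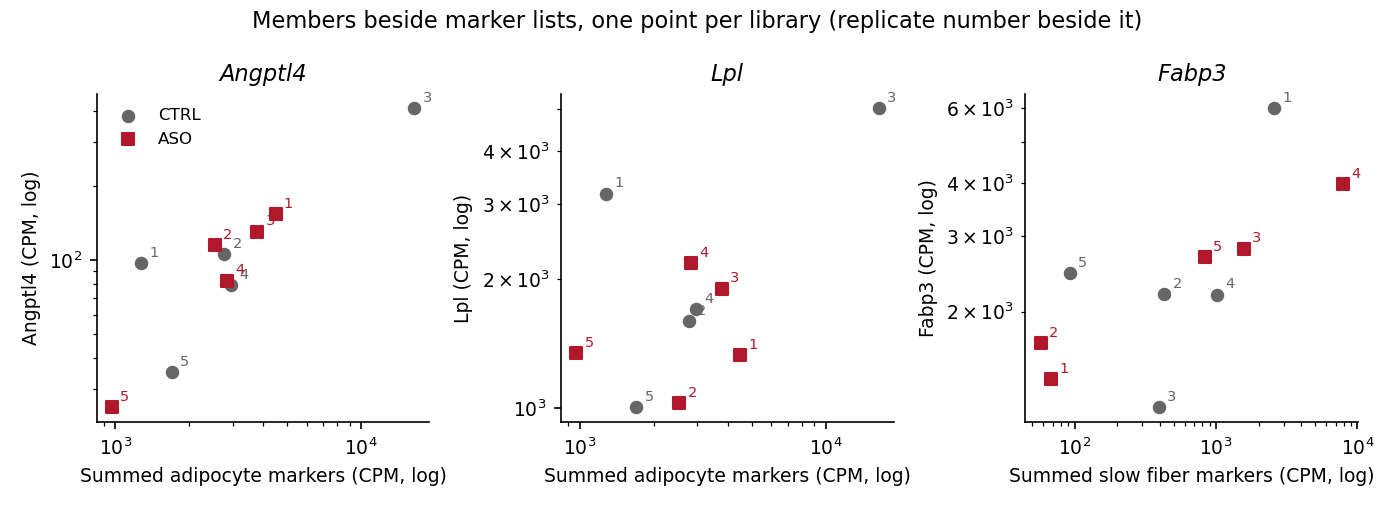
Each point is a library, numbered by its replicate, with CPM on log axes: Angptl4 and Lpl against the summed adipocyte markers, and Fabp3 against the summed slow fiber markers. CTRL replicate 3 is at the far right with the highest Angptl4 (410 CPM) and Lpl (5026 CPM), and CTRL replicate 1 and ASO replicate 4 are at the top right for Fabp3.

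The receptor of the very low density lipoproteins, Vldlr, holds lipoproteins near the lipase. CTRL libraries held 432, 476, 430, 573 and 405 CPM and ASO libraries 352, 380, 390, 472 and 413 CPM. Of the 8 tested genes it varied least between libraries, and 3 ASO libraries were below all CTRL libraries. The difference did not pass the test (463 ± 66.5 against 401 ± 45.3 CPM, n = 5, log2 fold change -0.21, SE 0.14, 95% interval -0.51 to 0.09, edgeR adjusted p = 0.29).

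Vldlr again showed a large difference between its segments. The distal end, chr19:27231132-27231631 on the plus strand, with 89.2% of the counts and downstream of the seed match, had 379 ± 56.6 CPM in CTRL and 386 ± 46.6 CPM in ASO libraries (log2 fold change 0.03, SE 0.15, edgeR adjusted p = 0.89). The segment chr19:27226763-27227262, 4369 bp upstream, fell from 39.1 ± 19.3 to 4.72 ± 2.30 CPM (log2 fold change -3.03, SE 0.43, edgeR adjusted p = 1.9e-04). Its neighbour chr19:27226628-27227127 fell from 38.9 ± 15.1 to 16.3 ± 3.38 CPM (log2 fold change -1.24, SE 0.27, edgeR adjusted p = 0.0032). Both were lower in every ASO library than in any CTRL library, and both lie in the 3′UTR of all 11 coding transcripts.

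Inside the fiber, Fabp3 carries fatty acids through the cytosol. CTRL libraries held 5985, 2201, 1192, 2193 and 2459 CPM and ASO libraries 1388, 1690, 2810, 3977 and 2688 CPM. The spread within each group was larger than the difference between them, and CTRL replicate 1 was far above the others. The log2 fold change was -0.16 (SE 0.39, 95% interval -1.02 to 0.69, 2806 ± 1842 against 2510 ± 1025 CPM, n = 5, edgeR adjusted p = 0.78), and without CTRL replicate 1 it was 0.32 (adjusted p = 0.45).

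Fabp3 is known as a gene of oxidative fibers, and it was highest in the libraries with the most slow fiber markers. After the group means were removed, r with the mean log2 CPM of the slow fiber markers was 0.69, and with that of the adipocyte markers -0.82, over the 10 libraries. CTRL replicate 1 and ASO replicate 4, the libraries with most Fabp3 in their groups, had slow fiber sums of 2552 and 7898 CPM, the highest in their groups. The counted segment, chr4:130209019-130209256, overlaps Zcchc17 on the other strand over 81 bases, and with no strand setting named for the counting, only the 157 bases outside that overlap tell the genes apart.

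Malonyl-CoA decarboxylase, the product of Mlycd, was measured on a single segment, chr8:120137342-120137841 on the plus strand. CTRL libraries held 586, 363, 258, 362 and 332 CPM and ASO libraries 398, 461, 545, 458 and 519 CPM. All ASO libraries were above 4 of the CTRL libraries, and CTRL replicate 1 was above every library. The log2 fold change was 0.32 (SE 0.20, 95% interval -0.11 to 0.76, 380 ± 123 against 476 ± 57.5 CPM, n = 5, edgeR adjusted p = 0.24), and without CTRL replicate 1 it was 0.54 (adjusted p = 0.025). Mlycd varied with Fabp3 (r = 0.86) and against the mean log2 CPM of the adipocyte markers (r = -0.88) over the 10 libraries after the group means were removed.

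Set against Acacb, the acetyl-CoA carboxylase that makes malonyl-CoA at the mitochondria of muscle, Mlycd gave a log2 ratio of counts of 4.92, 4.39, 4.11, 4.49 and 4.73 in CTRL and of 4.47, 4.76, 6.39, 5.50 and 5.50 in ASO libraries. ASO replicates 3, 4 and 5 were above every CTRL library, and replicates 1 and 2 were within their range. The difference of 0.80 did not pass (4.53 ± 0.31 against 5.32 ± 0.75, n = 5, two-sided exact permutation p = 0.063, adjusted over 4 ratios 0.25).

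Ucp3 is the uncoupling protein of skeletal muscle. CTRL libraries held 667, 680, 378, 494 and 512 CPM and ASO libraries 682, 1098, 703, 319 and 849 CPM. ASO replicates 1, 2, 3 and 5 were above every CTRL library, and ASO replicate 4, the library with the most slow fiber markers, was the lowest of all. The log2 fold change was 0.42 (SE 0.28, 95% interval -0.18 to 1.02, 546 ± 127 against 730 ± 283 CPM, n = 5, edgeR adjusted p = 0.28), and without ASO replicate 4 it was 0.64 (adjusted p = 0.042). Ucp3 varied with the mean log2 CPM of the fiber markers (r = 0.77) and against that of the fibroblast markers (r = -0.82) over the 10 libraries after the group means were removed.

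Of Ucp3, the distal segment was higher in the fit of all segments and the upstream one did not pass the test. The difference between them is given with the balance of segments. The distal segment, chr7:100135140-100135639 on the plus strand, held 74.4% of the counts. It went from 353 ± 97.0 to 590 ± 211 CPM (log2 fold change 0.74, SE 0.27, 95% interval 0.15 to 1.33, edgeR adjusted p = 0.047 over all segments, of which 16.0% passed as higher). When each gene was reduced to its most distal segment and the libraries rescaled, it did not pass the test (0.43, edgeR adjusted p = 0.33). The segment 1126 bp upstream, chr7:100134316-100134513, had 184 ± 26.4 CPM in CTRL and 148 ± 70.5 CPM in ASO libraries (log2 fold change -0.31, SE 0.29, edgeR adjusted p = 0.42).

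Ucp2, the uncoupling protein of macrophages, pancreas and many other cells, was nearly absent from the counts. It had 11 counts over the 10 libraries, at most 3 in any library, on the 195 bases of its segment that do not overlap Dnajb13 on the other strand, and it was not tested. Its seed match lies upstream of this segment. The log2 ratio of Ucp3 to Ucp2 was 9.69 ± 1.70 in CTRL and 10.18 ± 1.17 in ASO libraries (n = 5, difference 0.49, two-sided exact permutation p = 0.60, adjusted over 4 ratios 0.68), and that of Slc27a1 to Slc27a4 was 2.37 ± 1.59 and 3.03 ± 1.55 (difference 0.67, p = 0.53, adjusted 0.68). Both ratios rest on counts of 0 to 6 in the denominator.

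Per length of sequence, the levels of these genes in CTRL muscle ran over several orders of magnitude. On the main segment of each gene, in CPM per kb of bases counted for it alone, Fabp3 stood at 17572 ± 11407, Lpl at 4915 ± 3211 and Cd36 at 2920 ± 1323 (SD, n = 5). The libraries of Fabp3 and Lpl overlapped, Lpl and Cd36 did not differ beyond their spread, and on its most distal segment Cd36 stood at 403 ± 190, below the 3 genes that come next. Vldlr (757 ± 113), Mlycd (749 ± 236) and Ucp3 (707 ± 194) followed at levels that did not differ beyond their spread, then Angptl4 at 286 ± 298. Slc27a4 (4.12 ± 2.40) and Ucp2 (3.30 ± 3.62) were at the bottom, at levels that did not differ beyond their spread either. Slc27a1, with so few bases of its own, has no place in this order. Counts did not scale with these lengths, as 36 bases of Vldlr held 558 counts and another 99 bases held 428. The values of Cd36 and Fabp3, on 117 and 157 bases, are therefore not on a like basis with those of genes counted on 500, such as Lpl, Vldlr, Mlycd and Ucp3.

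The balance of counts between upstream segments and the most distal one could be read within each library. It was read for genes with enough counts on both sides, a comparison chosen after the segment values were seen. The upstream segments of Vldlr and Ucp3 lie in the 3′UTR of all 11 and all 9 of their coding transcripts. Counts there can come from transcripts that end farther on, and the use of separate transcript ends was not measured. Of Cd36 counts, 65.2% to 84.7% were on upstream segments in CTRL and 55.4% to 64.2% in ASO libraries. For Vldlr the shares were 8.77% to 24.8% and 3.55% to 6.02%, and for Ucp3 30.8% to 38.2% and 16.5% to 22.96%. In all 3 genes the groups did not overlap, with log2 ratios of upstream to distal counts lower in ASO libraries by differences of -0.94, -1.83 and -1.14 (two-sided exact permutation p = 0.0079 each, the smallest that 5 against 5 allow, and 0.011 adjusted over 4 genes), while for Lpl the difference was 0.47 (permutation p = 0.35).

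This shift was shared by most genes. Of the 2064 genes with at least 50 counts on each side, 46.5% had lower upstream ratios in ASO libraries without overlap and 1.26% higher ones. A lower mean was found in 87.4% of them, with a median difference of -1.10. Cd36 and Ucp3 lie close to that median and Vldlr beyond it, in the direction of most genes, and the shift is not particular to them. The gene sums of Cd36, Vldlr and Ucp3 carry this shift, and its part in the lower Cd36 was not tested beyond the segment values above.

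**Figure D4:**
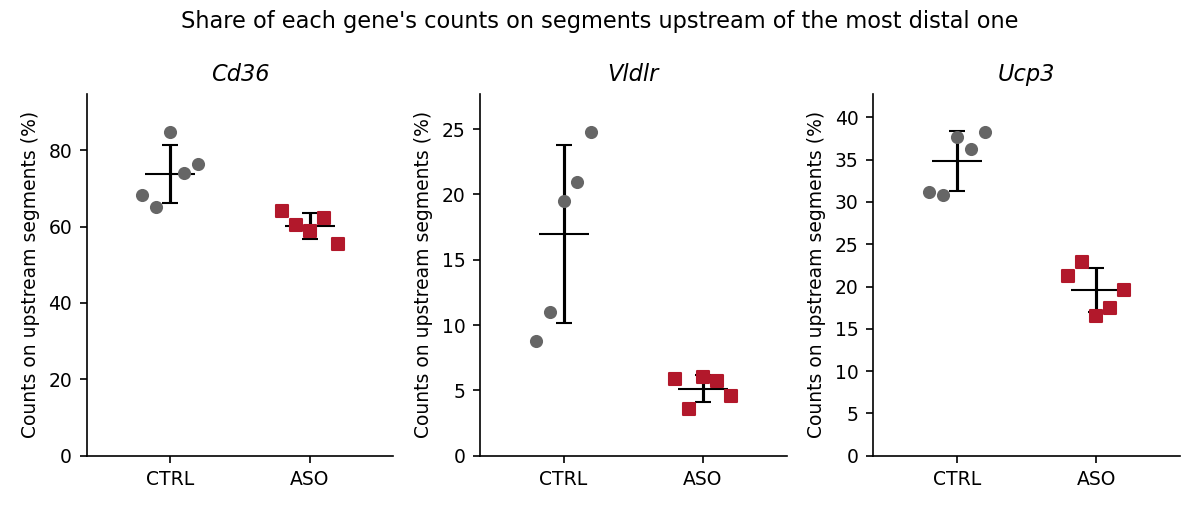
Each panel plots, for Cd36, Vldlr or Ucp3, the percentage of the counts of the gene that fell on segments upstream of the most distal one, in CTRL (grey circles) and ASO (red squares) libraries, with mean and SD (n = 5). The axes start at 0 and differ between panels, and in each panel every ASO library is below every CTRL library.

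The genes that work beside these ones were followed in 5 lists, which were written with earlier results of these data known. Of 24 genes that take part in lipase maturation, binding, uptake and acyl-CoA formation, 14 were tested, 4 were higher and 3 lower, with a median log2 fold change of -0.40. That is 7 of 14, beside 29.2% of all genes. With only the most distal segments 1 passed (Zdhhc5), while Zdhhc4, Lmf1, Cav1 and Scarb1 had too few counts there to be tested. Gpihbp1, which anchors the lipase to the capillary, rose by 0.64 (SE 0.20, adjusted p = 0.029, edgeR), Lmf1, needed to fold the lipase, by 0.77 (SE 0.16, adjusted p = 0.0034), and the palmitoyltransferases Zdhhc4 and Zdhhc5, which modify CD36, by 0.93 (SE 0.16, adjusted p = 0.0014) and 0.85 (SE 0.17, adjusted p = 0.0038). The call of Gpihbp1 was lost in 6 of 10 fits without a library (adjusted p up to 0.068) and on its most distal segment (0.43, adjusted p = 0.43). Lower were the acyl-CoA synthetase Acsl1, from 2186 ± 649 to 1015 ± 191 CPM (log2 fold change -1.11, SE 0.21, adjusted p = 0.0028), the caveolin Cav1 (-2.03, SE 0.49, adjusted p = 0.0091) and the lipoprotein receptor Scarb1 (-1.0, SE 0.27, adjusted p = 0.014). On its most distal segment Acsl1 was at -0.65 (edgeR adjusted p = 0.091). Cav1 is abundant in fat and endothelium and was highest in CTRL replicate 3 (2933 CPM), and without single libraries its change was between -2.25 and -1.27.

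Around malonyl-CoA and carnitine, 10 of 15 genes were tested, 3 were lower and none higher, with a median of -0.48. This share, 30.0%, is near the 29.2% of all genes. The 3 were the carnitine transporter Slc22a5 (log2 fold change -1.02, SE 0.17, adjusted p = 0.0013, edgeR), the carnitine acetyltransferase Crat (-0.87, SE 0.19, adjusted p = 0.0053) and the muscle carnitine palmitoyltransferase Cpt1b, which malonyl-CoA inhibits (-0.60, SE 0.21, adjusted p = 0.043). On their most distal segments Slc22a5 was at -0.34 (edgeR adjusted p = 0.40) and Crat at -0.46 (adjusted p = 0.12). All counts of Cpt1b came from 2360 bp before the most distal end of the gene, and its call was lost in 7 of 10 fits without a library, with adjusted p-values up to 0.10. Of the 10 uncoupling and inner membrane carriers, 7 were tested and none passed, with a median of 0.19, and the adenine nucleotide carrier of muscle, Slc25a4, named after its value was seen, came nearest (0.60, SE 0.23, adjusted p = 0.069).

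Among the PPAR receptors and their partners, 11 of 15 were tested, 4 were lower and none higher, with a median of -0.27. That is 36.4% of those tested, beside 29.2% of all genes in either direction and 17.4% lower. With at least 10 counts in every library or with libraries drawn down 2 passed (Med1 and Esrrg), and Ppara and Esrrb had too few counts to be tested. With only the most distal segments 0 passed, and none of the 4 had enough counts there to be tested. Ppara, the receptor that fatty acids activate in oxidative tissue, fell from 23.1 ± 15 to 2.09 ± 1.59 CPM (log2 fold change -3.41, SE 0.61, adjusted p = 0.0018, edgeR). Every ASO library was below every CTRL library, though ASO replicate 4 (4.56 CPM) and CTRL replicate 2 (4.63 CPM) nearly met. The groups did not overlap in 21.4% of all genes. Ppara and Esrrb passed the filter on low counts mainly through the CTRL libraries, so their calls as lower give no support of their own. The estrogen-related receptors Esrrb (-3.98, SE 0.74, adjusted p = 0.0022) and Esrrg (-1.43, SE 0.47, adjusted p = 0.036) and the Mediator subunit Med1 (-1.48, SE 0.28, adjusted p = 0.0026) were lower too. Esrrg was counted only on a segment 499 bp before its most distal end, and its call was lost in 6 of 10 fits without a library, with log2 fold changes of -2.14 to -1.07 and adjusted p-values up to 0.093 (edgeR). Esrrb and Med1 were counted almost wholly on segments 1828 and 2094 bp upstream of their most distal ends, Ppara on its most distal segment for 47.9% of its counts, and Esrrb had 0 counts in 3 ASO libraries, so that its fitted fold depends on the prior count.

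Other genes that respond to fatty acids or oxidize them moved in both directions. Of 21, 13 were tested, 2 were higher and 2 lower, with a median of -0.13. This share, 30.8%, is near the 29.2% of all genes. The medium-chain dehydrogenase Acadm fell from 1542 ± 367 to 696 ± 84.9 CPM (log2 fold change -1.15, SE 0.17, adjusted p = 6.9e-04, edgeR) and was lower also on its most distal segment alone (-0.91, adjusted p = 0.0084). Hadhb, the beta subunit of the trifunctional protein, fell by 2.15 on the log2 scale (SE 0.26, adjusted p = 2.0e-04), and 98.4% of its counts came from 7702 bp before the most distal end of the gene. Pdk2, which blocks pyruvate oxidation, rose by 0.81 (SE 0.18, adjusted p = 0.0050) and the thioesterase Acot13 by 0.72 (SE 0.23, adjusted p = 0.033). The call of Acot13 was lost in 6 of 10 fits without a library (edgeR adjusted p up to 0.081), with the replicate block (0.083), with total counts (0.075) and on most distal segments (0.42, adjusted p = 0.18).

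**Figure D5:**
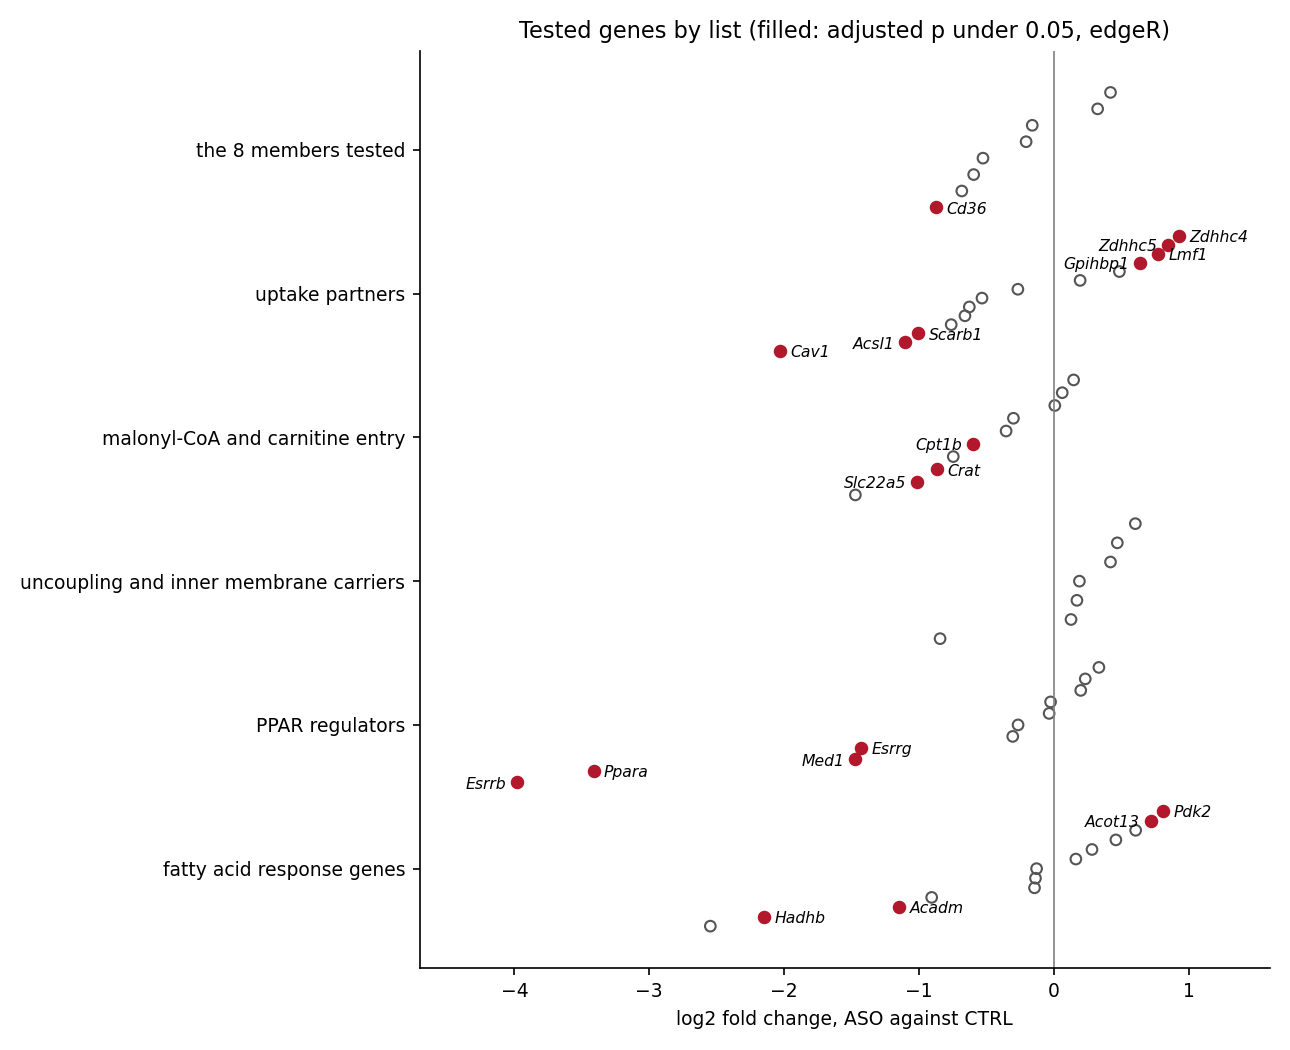
The horizontal axis is the log2 fold change of ASO against CTRL for each tested gene of the 10 members and of the 5 lists of related genes, spread vertically within a list only for legibility. Filled red points passed an adjusted p of 0.05 and are named, among them 1 of the 8 tested members, 7 of 14 uptake partners and 4 of 11 PPAR regulators.

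The genes whose variation between mice was most like that of Cd36, by Pearson's r of log2 CPM over the 10 libraries after the group means were removed, among 7737 genes, were Tbca (r = 0.97), Palmd, Acss2, Chid1 and Lbh (r = 0.92 each for the 4 others). Acss2, which makes acetyl-CoA from acetate, was lower with the ASO as well (log2 fold change -0.71, SE 0.23, edgeR adjusted p = 0.034), a call lost in 6 of 10 fits without a library (adjusted p up to 0.088), with the replicate block (0.053) and with upper quartile scaling (0.055). The other 4 did not pass the test, with log2 fold changes of -0.28 to 0.47.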

How the data were processed

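Gastrocnemius poly(A) RNA of 5 ASO and 5 CTRL mice was sequenced as stranded mRNA libraries. The authors used fastp for trimming and STAR for alignment (GRCm39), and deposited raw read-pair counts from featureCounts (Gencode M25, no strand option named), restricted to the last 500 bp of each 3′UTR. The table has 52423 segments, of which 52361 were mapped to genes with GENCODE M39 and summed per gene, and the 62 others hold 0.0197% of the counts. A further 4 columns of samples were not used.

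Groups were tested with edgeR 4.0.16 (R 4.3.3; TMM, filterByExpr, quasi-likelihood, Benjamini-Hochberg) and ratios with exact permutation tests over 252 labellings (0.5 added to each count). The edgeR fit was tried on simulated counts, and the permutation test on made-up values with a known answer. The authors used DESeq2, which was an alternative here (DESeq2 1.42.0), as were other scalings and filters, the replicate block, most distal segments and leaving out each library. Separate segments were fitted after seeing the data. Replicates are separate samples by their labels, and p-values measure the spread between them. Intervals and floors cover counting error only where they come from counts.

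The members, lists and tests were chosen with earlier results of these data known. Named genes are the 10 members, up to 6 per list and 4 per marker list past the threshold by smallest p, and the 5 most like the member with the smallest p. Of 5 tested fiber markers, 4 (Ttn, Actn3, Atp2a1 and Ckm) were higher, or 80.0%, beside 29.2% of all genes. On most distal segments Ckm was at -0.068 (edgeR adjusted p = 0.87). Actn3 (1.50, adjusted p = 0.0090) and Atp2a1 (0.79, adjusted p = 0.041) passed there, and Ttn was not tested. None of the 4 tested blood genes passed.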

Additional observations from a re-analysis of the deposited data

Results flagged for a closer look

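Single libraries stood apart in 3 places, in 24 groups of 5 examined by the gap to the nearest library relative to the range, where chance alone gives about 1 in 20. Fabp3 was 5985 CPM in CTRL replicate 1, with 1192 to 2459 CPM in the other CTRL libraries. Angptl4 was 410 CPM in CTRL replicate 3, the library with the highest summed adipocyte markers, with 35.1 to 106 CPM in the others. The log2 ratio of Slc27a1 to Slc27a4 was 5.21 in CTRL replicate 1, where Slc27a4 had 0 counts, and 1.49 to 1.79 in the other CTRL libraries.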

How the results depend on the processing

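Summed over its segments, Cd36 stayed below 0 in every setting tried, at -1.05 to -0.69, and at -0.53 with most distal segments alone. As separate segments it ran from -1.43 to -0.20. It passed the test except on its most distal segment, in either fit, and without ASO replicate 1, 2 or 5 or CTRL replicate 1 or 3. The number of members lower was accordingly 0 to 1 without single libraries, and that of members higher 0 to 1 (Ucp3 without ASO replicate 4, Mlycd without CTRL replicate 1). The uncoupling carriers called were 0 to 1 without single libraries, and 1 with DESeq2 and with upper quartile scaling. Counting only most distal segments, with 5087 genes tested, left 231 genes higher and 335 lower, 0 members lower, 1 uptake partner, 0 malonyl-CoA and carnitine genes, 0 PPAR regulators and 2 fatty acid response genes, and Ckm turned to -0.068. Genes with too few counts on that segment were not tested, among them Ppara, Esrrb, Med1, Esrrg, Zdhhc4, Lmf1, Cav1, Scarb1, Cpt1b and Hadhb. In that fit genes with a single segment moved as well, Fabp3 to -0.44 and Mlycd to 0.04. PPAR regulators called were 2 with at least 10 counts in every library and 2 with libraries drawn down, where Ppara and Esrrb were not tested. Scaling by total counts called 540 genes higher and 1813 lower, so that 22.95% of calls were higher against 40.3% with TMM and 51.1% with upper quartile scaling, and it shifted the median of all genes to -0.20.

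Without single libraries the log2 fold changes spanned 0 for Fabp3 (-0.37 to 0.32, above 0 without ASO or CTRL replicate 1), Angptl4 (-0.78 to 0.34, above 0 without CTRL replicate 3), Tbca (-0.15 to 0.036, above 0 without CTRL replicate 1), Chid1 (-0.22 to 0.035, above 0 without CTRL replicate 1 or 3) and the log2 ratio of Angptl4 to Lpl (-0.0069 to 0.64, below 0 without ASO replicate 1). Taken as separate segments, directions turned for the distal end of Vldlr (0.030) and the upstream end of Ucp3 (-0.31). The causes were not tested. Replicate numbers did not pair the samples (correlations of -0.43 to 0.16 over 5 pairs), and the replicate block gave Cd36 -0.84 and 1 member lower, and counted over all genes higher 662 and over all genes lower 1172. Few counts limit Slc27a4, Ucp2 and Slc27a1, with 29, 11 and 152, and Ucp2 and Slc27a1 were counted on only 195 and 6 bases of their own.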
